A study of Mus musculus with 2 samples.

Results

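The genes described here encode the colony-stimulating factor and TGF-beta signals that support microglia, the resident macrophages of the brain. They are the receptor genes Csf1r, Csf2ra, Csf2rb, Tgfbr1 and Tgfbr2, the ligand genes Csf1, Il34, Tgfb1 and Tgfb2, and Smad3, which encodes a signal transducer of the TGF-beta receptors. These 10 genes were taken by symbol from the 32285 genes of the deposited tables, and each symbol matched 1 gene. The data are single-cell RNA counts from the hippocampi of untreated mice at 4 weeks of age. A library of wild-type mice and a library of Crlf3-mutant mice were made, each from 4 hippocampi of 2 mice pooled before dissociation, so that each genotype is a single sample. Crlf3 encodes cytokine receptor-like factor 3, and the series title concerns a single nucleotide variant of it. The labels do not give the sex of the mice or the background strain. The question asked of these 10 genes was which cell classes held the transcripts of each ligand and each receptor in the 2 libraries.

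CSF1R is a receptor tyrosine kinase that microglia need for survival. It binds 2 ligands of unrelated sequence, CSF1 and IL-34, and IL-34 in the brain is known mainly as a product of neurons. CSF2RA and CSF2RB are the ligand-binding and the signalling chain of the receptor for GM-CSF, the product of Csf2. TGF-beta is secreted in a latent complex and has to be freed from it, for example by integrins. It then binds TGFBR2, which recruits and phosphorylates TGFBR1, and TGFBR1 in turn phosphorylates SMAD2 and SMAD3. In microglia this pathway is known to maintain the homeostatic gene programme.

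The genes lie on 9 chromosomes of mm10. Csf1 is on chromosome 3 (107741048 to 107760469), Il34 on chromosome 8 (110741829 to 110805924) and Csf2rb on chromosome 15 (78325752 to 78353847). Tgfb1 is on chromosome 7 (25687002 to 25705077), Tgfb2 on chromosome 1 (186622792 to 186705989) and Tgfbr1 on chromosome 4 (47353222 to 47414931). Tgfbr2 (116084293 to 116175360) and Smad3 (63646767 to 63757994) are both on chromosome 9, Csf2ra is on chromosome 19 (61223957 to 61228429) and Csf1r is on chromosome 18.

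Filters kept 7098 wild-type and 5276 mutant cells, with 48973371 and 41736212 UMIs (unique molecular identifiers, the molecules counted). The median depth was 6193 and 7385 UMIs per cell. Each cell was assigned to a class by marker genes that exclude the 10 genes, and the class names below mean cells that resemble that type by those markers. Microglia numbered 4409 wild-type and 3221 mutant cells, astrocytes 759 and 477, endothelial cells 801 and 792, and choroid plexus cells 399 and 138. Mural cells, the pericytes and smooth muscle that wrap vessels, numbered 127 and 158, and cells of the neuron lineage (progenitors and neuroblasts) 167 and 217. Border macrophages (65 and 20), ependymal cells (46 and 18) and fibroblasts (21 and 7) are given as levels only. In each of these classes every marker of its own panel reached 50 CPM in both libraries. CPM gives the UMIs of the gene for each 1000000 UMIs of its class, and pairs of values below are wild type first and mutant second. No mature neurons, oligodendrocytes or their precursors were found as a class, so the ligands made by those cells are not covered. Crlf3 stood at 136 and 139 CPM in microglia, and the counts do not show which allele a transcript came from. The 2 libraries shared 64 cell barcodes as deposited. With 1 library per genotype no difference could be tested, and intervals in parentheses are 95% counting intervals (exact Poisson for CPM, exact Clopper-Pearson for shares) that leave out differences between mice, dissociations and sorts.

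**Figure D1:**
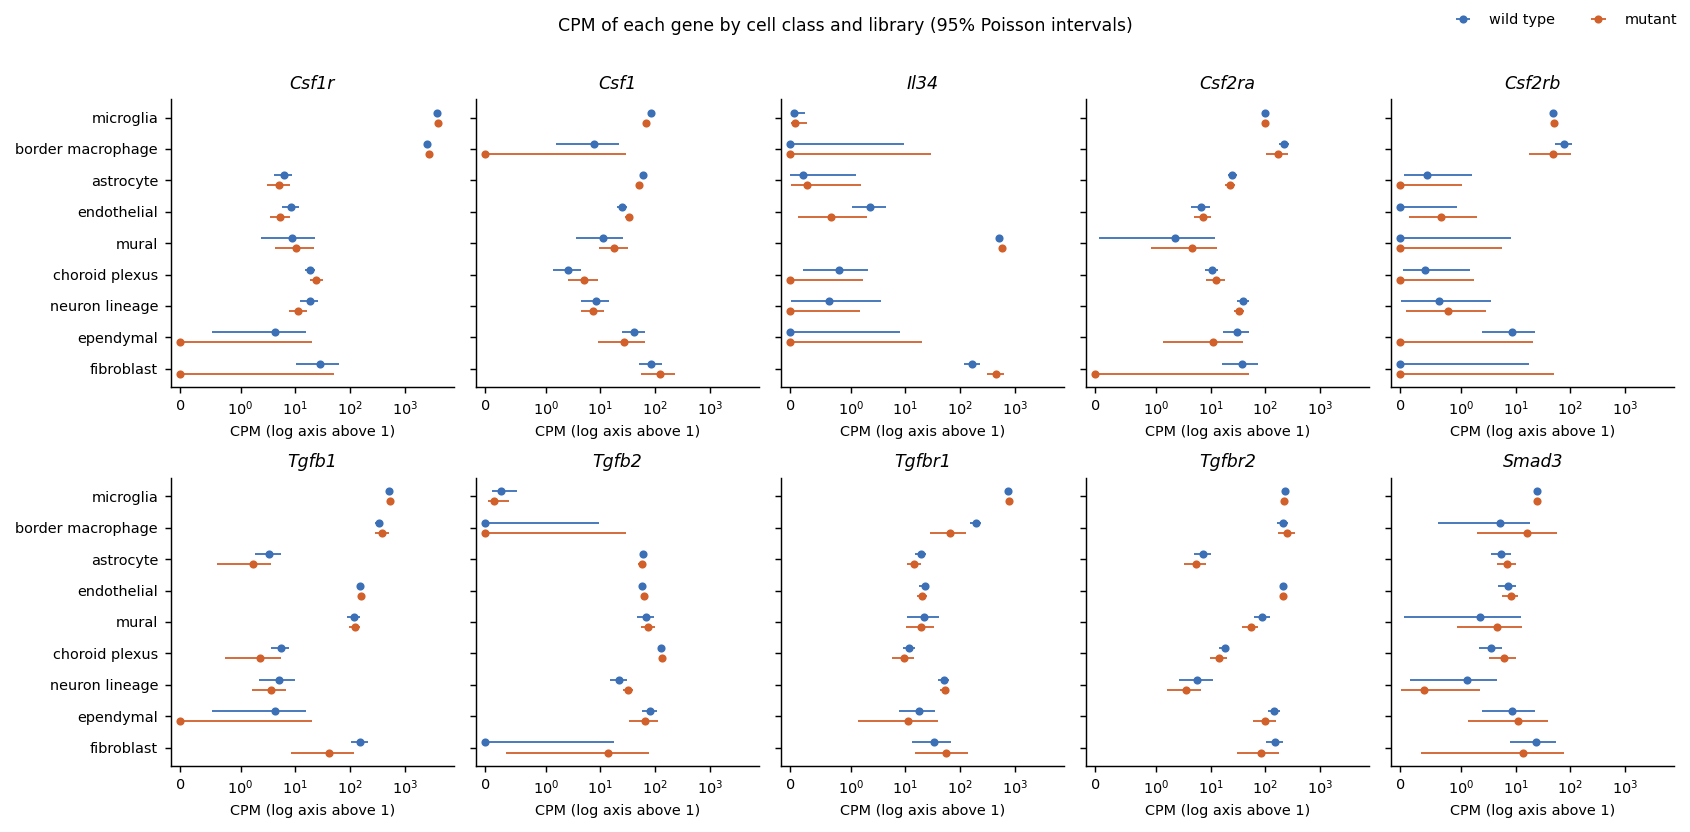
CPM of each of the 10 genes (horizontal, log axis above 1 CPM) in 9 marker-gated classes, with wild type in blue, mutant in orange and bars for exact Poisson 95% intervals. Csf1r and Tgfbr1 are far to the right in microglia, Il34 in mural cells and fibroblasts, and Tgfb2 is at the left edge in microglia while every other class with at least 100 cells is above 20 CPM.

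Csf1r was a gene of the microglia and border macrophages. It stood at 3938 CPM (3915 to 3961) in wild-type and 4038 CPM (4013 to 4063) in mutant microglia, and 99.98% and 99.91% of microglia had at least 1 UMI. Border macrophages were lower, at 2619 CPM (2461 to 2784) and 2745 CPM (2463 to 3052). In every other class with at least 100 cells the level was 25 CPM or less. Choroid plexus cells were the highest of these, at 18.8 and 24.4 CPM, and there 6.77% of wild-type and 6.52% of mutant cells had a Csf1r UMI. Over the whole choroid plexus class the microglial marker panel summed to 163 and 192 CPM, against 24239 and 24511 CPM in microglia. Whether it lay in the cells with a Csf1r UMI was not tested. Of all Csf1r UMIs in cells with a class, the few T, B and neutrophil cells included, microglia held 99.0% and 99.5%. Here and below, such shares depend on the class sizes, which dissociation and the sort set. Microglia were 62.1% and 61.05% of the cells kept, so the shares do not give the sources in the tissue.

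Il34, the ligand of CSF1R with the narrower source in these cells, came from the vessel wall. In mural cells it stood at 512 CPM (448 to 582) and 587 CPM (530 to 648), and 78.0% and 80.4% of mural cells had a UMI. Fibroblasts came next, at 167 CPM (116 to 232) and 452 CPM (311 to 635), but these rest on 35 UMIs in 10 cells and 33 UMIs in 2 cells. Over the whole fibroblast class the mural marker panel summed to 2071 and 5277 CPM, with 3 and 4 of its 8 markers at 0. Its part in the fibroblast Il34 value was not tested. Microglia held 2 UMIs among 29548937 of wild-type and 2 among 25762817 of mutant cells. Endothelial cells, which adjoin mural cells in the vessel, stood at 2.28 and 0.669 CPM. Astrocytes, choroid plexus and the neuron lineage each held at most 4 UMIs in a library. Mural cells, 1.79% and 2.99% of all cells, held 81.8% and 91.0% of the Il34 UMIs.

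Within the mural class Il34 followed the pericyte markers. Mural cells in which Kcnj8, Abcc9 and Vtn UMIs outnumbered those of the smooth muscle genes Acta2 and Myh11 were 108 wild-type and 130 mutant cells, with Il34 at 667 CPM (580 to 763) and 769 CPM (690 to 855). The other 19 and 28 mural cells stood at 164 CPM (104 to 246) and 221 CPM (163 to 292). The intervals of the 2 kinds of mural cell did not overlap in either library. These marker sets are part of the mural panel, and Il34 was not used for the split.

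Csf1, the other ligand of CSF1R, had its highest level among the large classes in the microglia themselves, taken as a whole class. It stood at 84.0 CPM (80.7 to 87.4) in wild-type and 67.8 CPM (64.6 to 71.0) in mutant microglia, and at 60.6 CPM (53.6 to 68.1) and 51.1 CPM (44.0 to 59.1) in astrocytes. Endothelial cells followed at 25.1 and 32.8 CPM, and mural cells at 11.0 and 18.0 CPM. Mural cells, the neuron lineage and the choroid plexus were next to each other in that order with overlapping intervals. Fibroblasts stood at 85.9 CPM (50.9 to 136) and 123 CPM (56.4 to 234) from 18 and 9 UMIs. Border macrophages, in contrast to microglia, held 3 UMIs and 0 UMIs, and the 0 allows up to 24.0 CPM. Microglia held 84.8% and 81.8% of the Csf1 UMIs and astrocytes 9.43% and 8.58%.

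The 2 main sources of Csf1 differed in how the transcripts were spread over cells. In microglia 16.4% and 16.8% of cells had a Csf1 UMI, and the 10% of cells with the most UMIs held 88.6% and 87.6% of them, with up to 46 and 43 UMIs in a cell. In astrocytes the top 10% held 55.1% and 51.4%, with no more than 4 and 6 UMIs in a cell. For comparison, the top 10% of microglia held 26.0% and 24.7% of the Tgfb1 UMIs. When every cell was thinned to 2000 UMIs, 8.38% and 7.69% of microglia and 11.6% and 10.7% of astrocytes had a Csf1 UMI, against 0.503% and 0.730% in the choroid plexus, the class with the lowest wild-type level. Counting intervals treat UMIs as independent and are too narrow for a gene spread this unevenly.

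**Figure D2:**
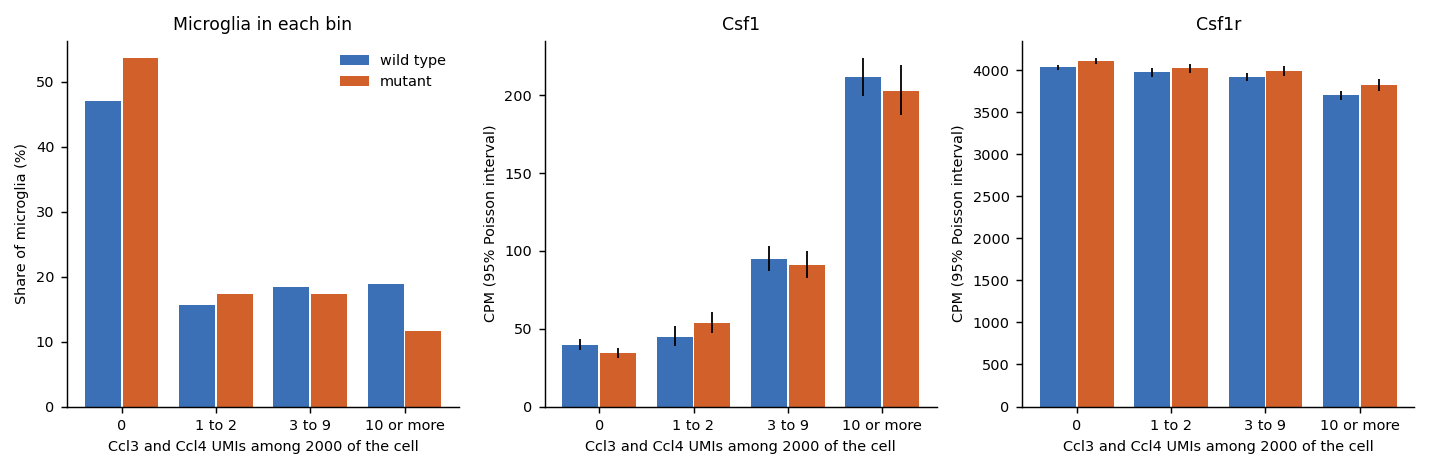
Share of microglia (left, %), Csf1 CPM (middle) and Csf1r CPM (right) by the number of Ccl3 and Ccl4 UMIs among 2000 UMIs of a cell, wild type blue and mutant orange, with exact Poisson 95% intervals on CPM. Csf1 is at 39.6 and 34.4 CPM in the cells without these UMIs and at 212 and 203 CPM in those with 10 or more, while Csf1r is between 3700 and 4109 CPM throughout.

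The Csf1 level of microglia rose with the chemokine transcripts Ccl3 and Ccl4. Microglia of at least 2000 UMIs were binned by their Ccl3 and Ccl4 UMIs after thinning, a grouping chosen with the data in view. Csf1 stood at 39.6 CPM (36.3 to 43.1) and 34.4 CPM (31.3 to 37.6) in cells with none of them. These microglia were below the astrocytes, at 60.6 CPM (53.6 to 68.1) and 51.1 CPM (44.0 to 59.1). Csf1 was 44.96 and 53.6 CPM with 1 to 2, 94.7 and 91.1 CPM with 3 to 9, and 212 CPM (200 to 224) and 203 CPM (187 to 219) with 10 or more. The lead of microglia over astrocytes thus did not hold in the cells without these chemokine UMIs. The top bin held 18.9% of wild-type and 11.6% of mutant microglia, and 48.4% and 35.5% of the microglial Csf1 UMIs. Tgfb1, Tgfbr1 and Tgfbr2 showed no such rise. Over the bins of both libraries Tgfb1 ranged from 509 to 555 CPM, Tgfbr1 from 734 to 796 CPM and Tgfbr2 from 221 to 236 CPM. Csf1r went slightly the other way, from 4033 and 4109 CPM without these UMIs to 3700 and 3820 CPM in the top bin.

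The GM-CSF receptor genes were present in myeloid cells without transcripts of their ligand. Csf2rb was found in microglia, at 47.7 CPM (45.3 to 50.3) and 50.9 CPM (48.2 to 53.8), and border macrophages, at 76.2 CPM (51.4 to 109) and 48.0 CPM (17.6 to 105), and was below 1 CPM in every other class with at least 100 cells. Csf2rb2, its near-identical neighbour, stood at 38.9 and 39.0 CPM in microglia, and reads of these copies cannot be told apart with certainty, so both levels are uncertain. Csf2ra had a wider range. It stood at 98.4 CPM (94.9 to 102) and 99.5 CPM (95.7 to 104) in microglia and at 224 CPM (179 to 275) and 168 CPM (104 to 257) in border macrophages. The neuron lineage followed at 39.5 CPM (30.3 to 50.6) and 33.7 CPM (27.0 to 41.6) and astrocytes at 24.8 and 22.9 CPM, although Csf2rb was below 1 CPM in both. After thinning, Csf2ra was found in 10.8% and 5.56% of neuron-lineage cells and in no wild-type and 0.699% of mutant mural cells. Csf2, the ligand gene, had 0 UMIs in all classes of both libraries, which allows up to 0.102 and 0.116 CPM in microglia. Csf3r, the receptor gene of the related granulocyte factor, stood at 123 and 130 CPM in microglia, and its ligand gene Csf3 had 1 UMI in all.

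Tgfb1 and Tgfb2, which encode 2 forms of the same ligand, were both found in endothelial and mural cells and parted in the other large classes. Tgfb1 was highest in myeloid cells, followed by vascular cells. It stood at 523 CPM (514 to 531) and 549 CPM (540 to 558) in microglia, at 345 CPM (290 to 409) and 392 CPM (290 to 519) in border macrophages, at 155 CPM (143 to 168) and 162 CPM (151 to 175) in endothelial cells and at 119 CPM (89.1 to 155) and 123 CPM (97.6 to 152) in mural cells. The intervals of endothelial and mural cells overlapped in both libraries. Fibroblasts stood at 153 CPM (104 to 216) and 41.1 CPM (8.48 to 120), from 32 and 3 UMIs. Astrocytes, choroid plexus and the neuron lineage were all below 6 CPM. Microglia held 94.4% and 93.9% of the Tgfb1 UMIs, and 92.1% and 95.4% of microglia had one.

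Tgfb2 was close to absent from microglia, with 8 UMIs (0.271 CPM) and 4 UMIs (0.155 CPM), and border macrophages held none, which allows up to 7.62 and 24.0 CPM. Its highest level was in the choroid plexus, at 130 CPM (121 to 141) and 133 CPM (118 to 149). Only 3 and 1 choroid plexus cells had Xist and no Y-linked transcript, against 192 and 64 of the reverse kind. In microglia these numbers were 2007 and 1382 against 1238 and 1077. The choroid plexus values may therefore not stand for all mice of a pool, and the mouse of a cell is not known. Mural cells (68.1 and 74.8 CPM), astrocytes (59.7 and 57.0 CPM) and endothelial cells (58.5 and 63.6 CPM) formed a middle group. Within it neighbours in the order of levels had overlapping intervals in both libraries. Ependymal cells stood at 80.4 CPM (56.6 to 111) and 66.0 CPM (34.1 to 115), and the neuron lineage at 21.7 and 32.1 CPM (25.6 to 39.9). In the neuron lineage the neuroblast-led cells stood at 30.1 CPM (19.3 to 44.9) and 46.7 CPM (35.8 to 59.9) and the progenitor-led cells at 12.9 CPM (6.20 to 23.8) and 16.3 CPM (9.97 to 25.2), with intervals that overlapped in the wild-type library alone. No class held most of the Tgfb2 UMIs in both libraries. The choroid plexus, with 399 and 138 cells, held 51.6% and 31.1%, endothelial cells 18.2% and 30.8%, and astrocytes 21.5% and 22.0%.

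The 250 bases before the start of these 2 ligand genes are shown because the genes parted in microglia, where Tgfb1 was high and Tgfb2 nearly absent, and in the choroid plexus, where the order was the reverse. They are from RefSeq on GRCm38.p6, the assembly of mm10, and are written in the direction of the gene. The Tgfb1 stretch is chr7:25686752-25687001 on the plus strand and the Tgfb2 stretch is chr1:186705990-186706239 on the minus strand. Capitals mark the GC box GGGCGG, or CCGCCC on the other strand.
Tgfb1: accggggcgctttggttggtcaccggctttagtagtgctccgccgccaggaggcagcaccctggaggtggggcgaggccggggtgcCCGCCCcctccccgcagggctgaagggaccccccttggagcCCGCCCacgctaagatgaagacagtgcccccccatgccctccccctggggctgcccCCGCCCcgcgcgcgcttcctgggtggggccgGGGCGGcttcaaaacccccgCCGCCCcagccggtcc
Tgfb2: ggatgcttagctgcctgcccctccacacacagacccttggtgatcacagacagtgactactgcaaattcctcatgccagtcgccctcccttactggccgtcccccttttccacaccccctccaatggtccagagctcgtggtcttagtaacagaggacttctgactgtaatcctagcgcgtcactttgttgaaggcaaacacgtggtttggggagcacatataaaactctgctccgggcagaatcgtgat
The Tgfb1 stretch held 5 matches to the GC box and the Tgfb2 stretch none. A match was present in 32.7% of the 32851 stretches of this length in the reference table. Neither stretch held the PU.1 core GAGGAAG (10.6% of all stretches), the AP-1 motif TGACTCA (4.46%) or the SMAD motif GTCTAGAC (0.167%) on either strand. These are matches of letters, and the counts bear on no binding.

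**Figure D3:**
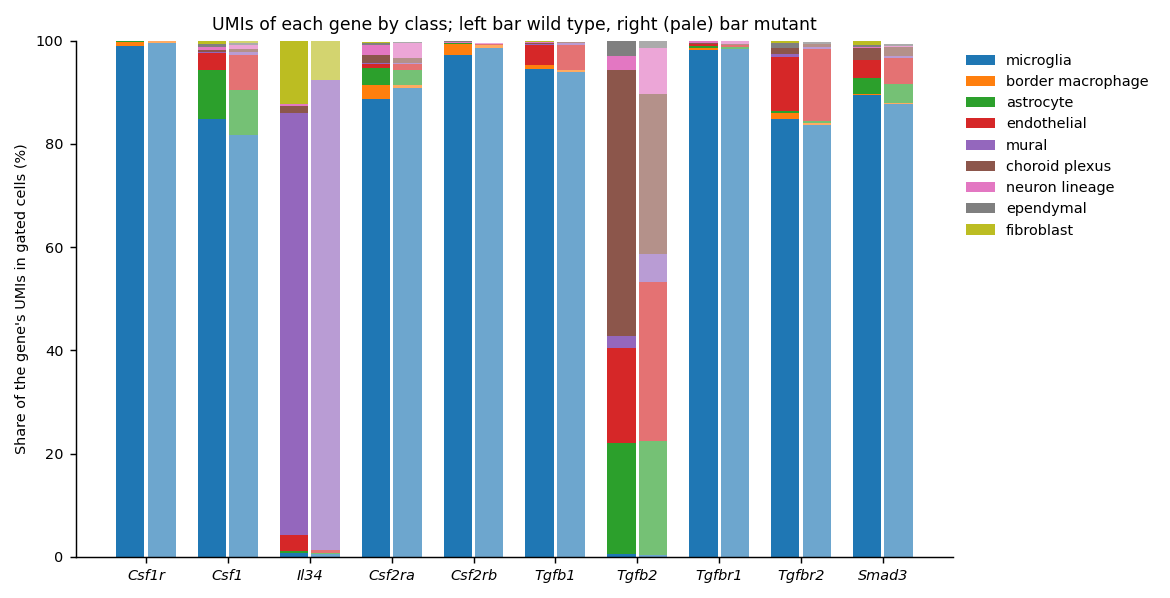
Share of each gene's UMIs held by each of 9 classes, the left bar of a pair being wild type and the pale right bar mutant. The vertical axis is the % of the gene's UMIs in all cells with a class, the few T, B and neutrophil cells included. Microglia fill most of the bar for 8 genes, mural cells for Il34 (81.8% and 91.0%), and Tgfb2 is divided among choroid plexus, endothelial cells and astrocytes.

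Vessel cells were not uniform in the TGF-beta ligands. In mural cells led by the smooth muscle genes, Tgfb2 stood at 150 CPM (92.7 to 229) and 131 CPM (87.5 to 188), against 31.7 CPM (15.2 to 58.4) and 47.1 CPM (29.1 to 72.0) in those led by pericyte markers. Tgfb3, the third ligand gene, stood at 264 CPM (186 to 364) and 135 CPM (91.2 to 193) against 12.7 and 11.2 CPM, and the former cells held 90.2% and 85.7% of its mural UMIs. Tgfb1 had the opposite order, at 49.9 and 36.0 CPM against 149 and 166 CPM. The 2 kinds of mural cell thus had separate ligand genes in both libraries, Il34 and Tgfb1 being higher in pericyte-marked cells and Tgfb2 and Tgfb3 in smooth muscle-marked cells, with intervals that did not overlap.

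**Figure D4:**
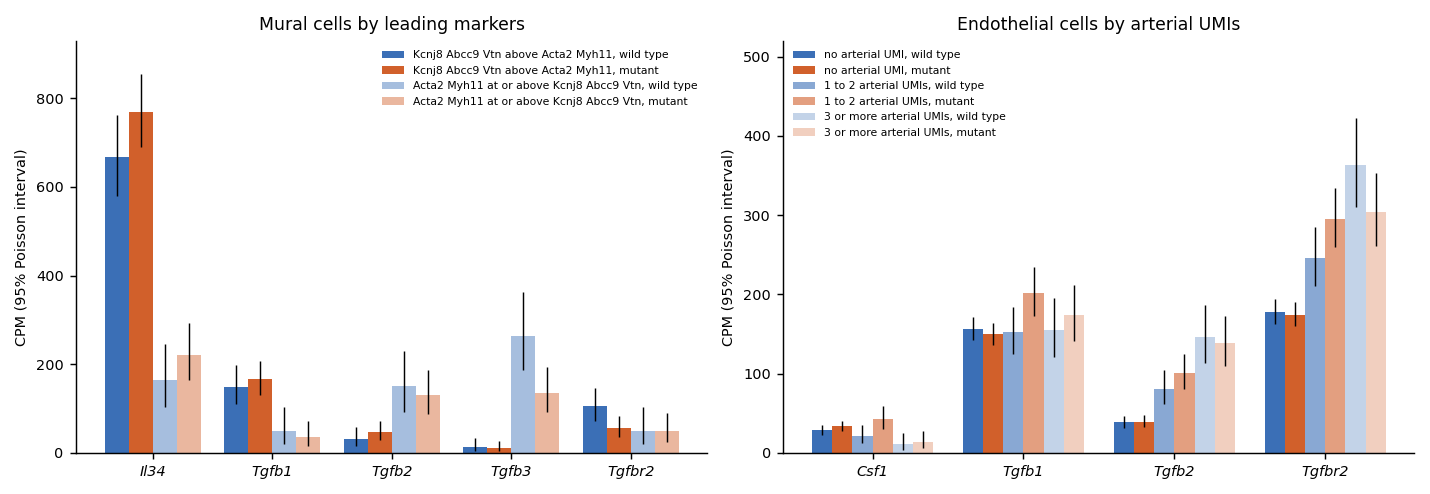
CPM with exact Poisson 95% intervals of ligand and receptor genes in mural cells split by pericyte and smooth muscle markers (left) and in endothelial cells split by arterial UMIs (right), wild type blue and mutant orange, paler for the later subsets of each legend. Il34 and Tgfb1 are higher in the pericyte-marked cells, Tgfb2 and Tgfb3 in the smooth muscle-marked cells, and Tgfb2 and Tgfbr2 are higher in endothelial cells with 3 or more arterial UMIs than in those with none.

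In endothelial cells Tgfb2 and Tgfbr2 followed arterial genes. Cells were split by their UMIs of Gkn3, Sema3g, Bmx and Alpl. Tgfb2 stood at 38.4 CPM (31.4 to 46.4) and 39.4 CPM (32.7 to 47.1) in cells without such UMIs and at 146 CPM (113 to 186) and 139 CPM (110 to 173) in cells with 3 or more. Tgfbr2 stood at 178 CPM (163 to 195) and 174 CPM (160 to 190) in the former and 363 CPM (310 to 422) and 304 CPM (261 to 353) in the latter. Tgfb1 stood at 156 and 149 CPM (136 to 164) without arterial UMIs, 152 and 202 CPM (173 to 235) with 1 to 2, and 155 and 174 CPM (141 to 212) with 3 or more. Its wild-type intervals all overlapped, while among mutant cells those with none and those with 1 to 2 had intervals that did not overlap. Csf1 stood at 10.9 CPM (3.55 to 25.5) and 14.1 CPM (6.07 to 27.7) with 3 or more and at 28.3 CPM (22.4 to 35.3) and 33.6 CPM (27.4 to 40.7) with none, and the intervals overlapped.

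The genes that store and free TGF-beta were divided among the classes too. Nrros, which tethers latent TGF-beta on microglia, stood at 256 and 246 CPM in microglia, 399 and 400 CPM in border macrophages and 114 and 112 CPM in astrocytes. Lrrc32, which encodes a tether of the same family, was found in mural cells at 85.7 and 92.8 CPM and in fibroblasts. Itgb8, the beta chain of an integrin that frees TGF-beta, stood at 126 and 130 CPM in astrocytes and 63.9 and 48.4 CPM in choroid plexus, and below 20 CPM in microglia. Itgav, its partner chain, stood at 160 and 152 CPM in astrocytes and 98.5 and 98.4 CPM in microglia. Among the latent TGF-beta binding proteins, Ltbp4 stood at 460 and 548 CPM in endothelial cells, Ltbp1 at 85.7 and 108 CPM in mural cells and Ltbp3 at 86.3 and 99.5 CPM in choroid plexus.

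Of the TGF-beta receptor genes, Tgfbr1 was far higher in microglia than in any other class. It stood at 762 CPM (752 to 772) and 776 CPM (765 to 787) in microglia, which held 98.2% and 98.4% of its UMIs. The neuron lineage was next among the large classes, at 50.3 CPM (39.8 to 62.7) and 52.1 CPM (43.6 to 61.8), and the rest stood between 9.21 and 22.3 CPM. Border macrophages had less than microglia, at 193 CPM (152 to 242) and 64.0 CPM (27.6 to 126), from 76 and 8 UMIs. In microglia thinned to 2000 UMIs, 75.1% and 75.8% had a Tgfbr1 UMI, and 29.0% and 27.3% had UMIs of both receptor genes.

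Tgfbr2 was shared by microglia and the endothelium. It stood at 228 CPM (223 to 234) and 224 CPM (218 to 230) in microglia and at 212 CPM (198 to 227) and 214 CPM (200 to 228) in endothelial cells, and these intervals overlapped in both libraries. Border macrophages were at 208 CPM (166 to 259) and 248 CPM (169 to 352), ependymal cells at 143 and 99.0 CPM, fibroblasts at 153 and 82.2 CPM, and mural cells at 87.9 CPM (62.8 to 120) and 53.9 CPM (37.7 to 74.6). Choroid plexus, astrocytes and the neuron lineage stood between 3.53 and 18.0 CPM. Endothelial cells held 10.5% and 13.9% of the Tgfbr2 UMIs beside the 84.9% and 83.7% of microglia. The endothelial Tgfbr1 level was 22.3 and 20.1 CPM, while Acvrl1, the gene of another type I receptor of the family known from vessels, stood there at 484 and 485 CPM and Eng, a co-receptor gene, at 868 and 1011 CPM. In microglia Acvrl1 stood at 22.4 and 22.0 CPM.

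Smad3 was detected at low levels. It stood at 24.6 CPM (22.9 to 26.5) and 24.2 CPM (22.3 to 26.2) in microglia and at 8.03 CPM or less in the other classes with at least 100 cells, where the remaining neighbours in the order of levels had overlapping intervals. It did not reach 50 CPM in any class. Smad2, which encodes the other TGF-beta transducer, stood at 48.3 and 54.2 CPM in microglia and at 84.7 and 77.6 CPM in the neuron lineage, and Smad4, the shared partner, at 46.5 and 52.0 CPM and at 116 and 127 CPM. Smad7, a feedback inhibitor, stood at 170 and 181 CPM in microglia and 67.1 and 84.5 CPM in endothelial cells.

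RNA from the many microglia could reach other droplets, and the Csf1r level of a class was used as a measure of it. In the choroid plexus Csf1r was unevenly spread, with 94 UMIs in 27 wild-type cells and 53 UMIs in 9 mutant cells. Whether it was free RNA or came from droplets that also held a microglial cell was not tested. If all Csf1r in endothelial cells were such RNA, it would bring 1.11 and 0.730 CPM of Tgfb1, 1.62 and 1.03 CPM of Tgfbr1 and 0.484 and 0.297 CPM of Tgfbr2. The measured endothelial levels were 155 and 162, 22.3 and 20.1, and 212 and 214 CPM. In mural cells it would bring 1.17 and 1.42 CPM of Tgfb1, where 119 and 123 CPM were measured. In astrocytes it would bring 0.131 and 0.0844 CPM of Csf1, where 60.6 and 51.1 CPM were measured. In the choroid plexus it would bring 2.49 and 3.32 CPM of Tgfb1, where 5.39 CPM (3.55 to 7.85) and 2.30 CPM (0.748 to 5.37) were measured. The wild-type interval lay above this amount and the mutant interval held it, but the 2 intervals overlapped. They rest on 27 UMIs in 10 cells and 5 UMIs in 3 cells. Choroid plexus RNA was itself more abundant outside its class in the wild-type library, with its panel summing to 227 CPM in astrocytes of the wild-type and 34.9 CPM in those of the mutant library, and its part in astrocyte Tgfb2 was not tested.

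The mutant and wild-type libraries were then compared within each class. The value used was the log2 ratio of mutant over wild-type CPM, after adding 10 CPM to each. A gene counted as measured if its higher library reached 50 CPM and 30 UMIs, and as different when the libraries were at least 1.5 times apart. Of the 60 pairs of a gene and a class, 18 were measured, covering all genes but Smad3, and 1 was at least 1.5 times apart. Every gene had its highest level among the large classes in the same class in both libraries (10 of 10).

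**Figure D5:**
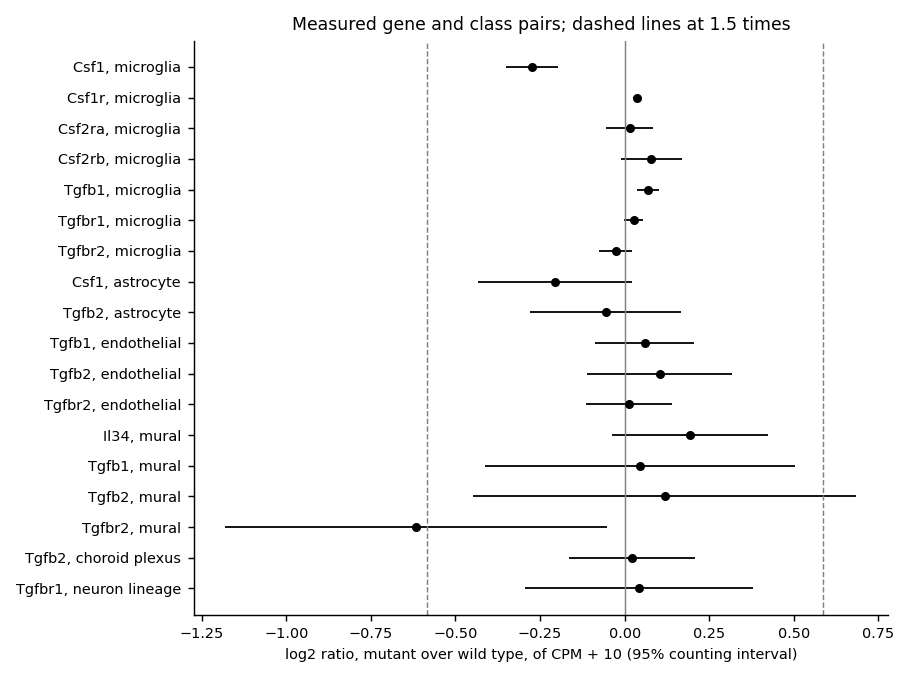
Log2 ratio of mutant over wild-type CPM, with 10 CPM added to each, for the 18 measured pairs of gene and class (points) with 95% counting intervals (bars). Dashed lines mark 1.5 times, and only Tgfbr2 in mural cells lies past one of them, at -0.62.

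In microglia none of the 7 measured genes was 1.5 times apart, and 0.124% of the 3228 genes measured in microglia were. Csf1r stood at 0.04 (0.02 to 0.05), Tgfb1 at 0.07 (0.04 to 0.10), Tgfbr1 at 0.03 (-0.00 to 0.05) and Tgfbr2 at -0.03 (-0.07 to 0.02). Csf2ra stood at 0.01 (-0.05 to 0.08) and Csf2rb at 0.08 (-0.01 to 0.17). All of these were nearer to 0 than 0.1.

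Csf1 was the gene furthest from equal in microglia, at -0.27 (-0.35 to -0.20), short of 1.5 times. After thinning, the share of microglia with a Csf1 UMI was 8.38% (7.57 to 9.24) and 7.69% (6.79 to 8.67), with overlapping intervals. Within the bins of Ccl3 and Ccl4 UMIs the ratio was -0.16 (-0.30 to -0.02), 0.21 (-0.01 to 0.43), -0.05 (-0.22 to 0.12) and -0.06 (-0.19 to 0.08), from the bin without such UMIs to the bin with 10 or more. The interval of the bin without such UMIs left out 0 and those of the other bins held it. The mutant library held fewer cells of the top bin (11.6% against 18.9%), and the part of this in the Csf1 value was not tested. Ccl4 itself stood at 2004 and 1318 CPM (log2 ratio -0.60) and Ccl3 at 817 and 556 CPM (-0.55). Both libraries contained cells that had Xist but lacked Y-linked transcripts (Xist cells) and cells of the reverse kind (Y cells). Csf1 was 78.8 and 75.5 CPM in microglial Xist cells (-0.05, interval -0.17 to 0.06) and 94.9 and 66.0 CPM in microglial Y cells (-0.46, interval -0.60 to -0.33). The difference between these sets of cells was not tested, and sex cannot be told apart from differences between single mice.

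In the vessel classes the libraries were close, apart from mural cells, where counts were small. None of the 3 measured genes was 1.5 times apart in endothelial cells (background 0.0281% of 3554 genes), with Tgfb1 at 0.06 (-0.09 to 0.20), Tgfb2 at 0.10 (-0.11 to 0.32) and Tgfbr2 at 0.01 (-0.11 to 0.14). In mural cells 1 of the 4 measured genes was, against 5.18% of the 3594 genes measured there. That gene was Tgfbr2, at -0.62 (-1.18 to -0.05) from 40 and 36 UMIs. Its ratio lay short of 1.5 times with Leiden clusters as classes (-0.39), with the looser cell filter (-0.56) and with 50 CPM added (-0.41). It was also short of it in Xist cells (-0.56 from 12 and 8 UMIs) and Y cells (-0.24 from 8 and 17 UMIs). These UMIs were too few for the gene to count as measured. It was larger with the stricter marker gate and after thinning (-0.99 in both), where 27 and 20 UMIs and 24 and 14 UMIs were too few for the gene to count as measured. Il34 in mural cells stood at 0.19 (-0.04 to 0.42), with 0.37 (-0.03 to 0.77) in Xist cells and -0.35 (-0.80 to 0.09) in Y cells. Tgfb1 at 0.05 (-0.41 to 0.50) and Tgfb2 at 0.12 (-0.45 to 0.69) had intervals wide enough to hold 0 and values near 1.5 times. Tgfb1 in mural Xist cells was past 1.5 times, at 0.65 (-0.10 to 1.40) from 19 and 33 UMIs, and in Y cells it stood at -0.27 from 11 and 23 UMIs.

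Elsewhere the same held. In astrocytes neither of the 2 measured genes was 1.5 times apart (background 0.25% of 3605 genes), with Csf1 at -0.21 (-0.43 to 0.02) and Tgfb2 at -0.06 (-0.28 to 0.17). In the choroid plexus Tgfb2, the 1 gene measured, stood at 0.02 (-0.16 to 0.21), and the background was 0.658% of 2583 genes. In the neuron lineage Tgfbr1, also the only gene measured, stood at 0.04 (-0.29 to 0.38), and the background was 0.401% of 4491 genes.

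Lists of pathway genes were set beside these values. Among 16 microglial genes known to depend on TGF-beta, all 16 were measured in microglia and none was 1.5 times apart, with a median log2 ratio of 0.02 against 0.01 over all measured genes. They include P2ry12 at 3030 and 3111 CPM, Tmem119 at 1738 and 1741 CPM and the transcription factor gene Sall1 at 184 and 196 CPM. The furthest from equal was Pros1, a ligand gene of phagocytic receptors, at 264 and 304 CPM (0.20). Of the 15 TGF-beta feedback and target genes 6 were measured in microglia and none was 1.5 times apart (median 0.05). Of the 14 receptor and SMAD genes 7 were measured and none was 1.5 times apart (median 0.09). The 16 genes of CSF1R adaptors and myeloid transcription factors were all measured, none 1.5 times apart (median -0.02), with the lineage factor gene Spi1 at 584 and 572 CPM and Maf, the furthest, at 423 and 377 CPM (-0.16).

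The growth factor response list of activated microglia was the one whose median lay furthest from that of all genes in microglia, at -0.41 over 4 measured of 12 listed genes. These were Csf1 itself, Ccl3 and Ccl4, which defined the bins above, and Apoe. The median is therefore no separate result, and the list's other genes were not measured in microglia. Ccl4 (-0.60) was 1.5 times apart, Ccl3 (-0.55) and Csf1 (-0.27) were lower in the mutant library, and Apoe, which encodes a lipid carrier, stood at 818 and 961 CPM (0.23). The 16 immediate early and dissociation genes had a median of -0.04, 12 of them lower in the mutant library, with Hspa1b at 224 and 149 CPM (-0.56) and Nr4a1 at 353 and 278 CPM (-0.34). Their part in the Csf1 value was not tested.

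Over the 8 lists and 6 classes, 13 of 238 measured pairs of a listed gene and a class were 1.5 times apart. Mural cells held 5 of these among 48 measured listed genes (10.4%, background 5.18%), the choroid plexus 3 of 15 (background 0.658%), astrocytes 2 of 31 (background 0.25%), the neuron lineage 2 of 25 (background 0.401%), microglia 1 of 72 (background 0.124%) and endothelial cells 0 of 47 (background 0.0281%). The lists were chosen with earlier results known, and these shares were not tested. Targets of the wider TGF-beta and BMP family were among them with no common direction. Id1 was higher in the mutant library in mural cells (121 and 190 CPM, log2 ratio 0.61) and in the neuron lineage (36.9 and 63.9 CPM, 0.65). Id3 was lower in the choroid plexus (220 and 126 CPM, -0.76), and Id1 stood there at 75.5 and 48.8 CPM (-0.54). In the same choroid plexus cells the immediate early genes Dusp1 (54.3 and 19.8 CPM, -1.11) and Egr1 (72.5 and 42.8 CPM, -0.64) were also lower, and their part in the Id3 value was not tested. Only 3 and 1 of these choroid plexus cells were Xist cells, against 192 and 64 Y cells, and the part of single mice was not tested. Tgfb3 in mural cells stood at 90.1 and 52.4 CPM (-0.68), from 41 and 35 UMIs. The smooth muscle-led cells that carry most of it were 14.96% of wild-type and 17.7% of mutant mural cells.

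Genes with the most similar class pattern were found by the Pearson correlation of log2(CPM + 10) over 12 sums, 6 classes by 2 libraries, among 7525 genes. The sums of 1 library share its depth and free RNA, so these correlations are descriptions without a test. Csf1r was most like C1qc (r = 0.999), Fcrls and Arhgap22, and Fcrls is 1 of the microglial gate markers. Il34 was most like Tbx18 (r = 0.9998), Plac9b and Cysltr2. Csf1 was most like Trib1 (r = 0.953), Rin2 and Zfp36l2. Tgfb1 was most like Atf3 (r = 0.995), Sipa1 and Zbtb7a, and Tgfb2 most like Edf1 (r = 0.986), Bola3 and Timm17a. Tgfbr1 was most like Smap2 (r = 0.993), Nfkbie and Ptpro, and Tgfbr2 most like Anxa3 (r = 0.989), Rasgrp3 and Lrch1. Csf2rb was most like Arhgap30 (r = 0.9996), Lat2 and Neurl3, and Csf2ra most like Mlxip (r = 0.975), Slc35c2 and Nipa2.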

How the data were processed

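The deposited tables hold UMI counts per gene and barcode, made by the authors with Cell Ranger 6.1.1 on the mm10-2020-A reference from 10x 5′ libraries, per the labels' protocols; the submitters' processing notes also list Partek without a version. Cells were sorted live after dissociation and myelin removal. The 10 genes and the lists were chosen with earlier results of these data known.

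Of 7713 and 5720 barcodes, 7246 and 5353 passed the filters: 500 genes, 1000 UMIs and no more than 10% of UMIs from mitochondrial genes. Scrublet (scanpy 1.11.5, expected rate 0.06) removed 148 and 77 doublets (2.04% and 1.44%). A cell joined the class whose panel, of 19, scored highest relative to that panel's typical level. It needed at least 4 panel genes (3 for panels of up to 6) and 20 UMIs per 10000. Cells with a second score of at least 0.25 of the first were left out (213 and 144), as were 77 and 61 without a class; 113 and 90 cells had a second score between 0.2 and 0.3 of the first. The markers were listed before, and this rule set after, the files were read. Few T, B and neutrophil cells are not described.

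UMI counts were summed per class and library and given as CPM. Ratios added 10 CPM. The interval method was tried on simulated counts with Poisson error alone. That could not test it against spread between cells, mice or libraries. Shares of cells were also computed after thinning cells to 2000 UMIs, which left out 162 and 120 shallower cells. The limit for a count of 0 is 3 UMIs of the class total. Of the 115 listed genes, 114 matched 1 symbol. All 10 genes were given in every class, up to 4 measured genes of each list with the largest ratio in a class, and family members by level; other listed genes named by level were chosen after their values were seen. The values of some listed genes are not reported here, and the counts and medians over the lists include them. Coordinates are from GENCODE M21 on GRCm38, where the gene identifiers matched. A promoter stretch was present in the RefSeq table for 7 of the 10 genes, and motifs were searched on both strands, overlaps included. The alternatives were other cell filters, no doublet removal, Leiden clusters (leidenalg 0.10.2), a stricter gate, thinning, per-cell means, cells by sex-linked transcripts, other pseudocounts and scaling, and no filter on low counts.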

Additional observations from a re-analysis of the deposited data

Results flagged for a closer look

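Tgfbr2 in microglia differed in direction between cells told apart by sex-linked transcripts. Microglia with Xist but without Y-linked transcripts had 242 CPM (wild type) and 226 CPM (mutant), a log2 ratio of -0.092 (-0.16 to -0.02). Microglia of the reverse kind had 206 and 221 CPM, a log2 ratio of 0.099 (0.01 to 0.19). Both counting intervals leave out 0, and both values are small against 1.5 times. The difference was not tested, and the sex of a cell cannot be told apart from the mouse it came from.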

How the results depend on the processing

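The class with the highest level was the same in both libraries for 10 of 10 genes, and 9 of 10 genes had over 50% of their UMIs in 1 class in both, under each alternative that changed the cells or their counts (the second count was not run for per-cell means). That class was the one reported, except Tgfbr2 in Y cells, highest in endothelial cells (213 and 237 CPM) above microglia (206 and 221 CPM), and Tgfb2 in Xist cells, highest in mural cells (83.0 and 68.3 CPM) with the choroid plexus not run. No paired analysis was possible because each group is 1 library. The 1 pair of a gene and a class at least 1.5 times apart became 0 with the looser cell filter, the stricter marker gate, thinning to 2000 UMIs, Y cells and 50 CPM added. With Leiden clusters there were 2, Csf1r in endothelial (-0.72) and Tgfbr1 in mural cells (0.90). The Leiden endothelial class took in 20 and 15 cells that the gate had left out as mixed. Its Csf1r rested on 394 and 249 UMIs, against 33 and 24 with the gate, and the part of the added cells was not tested. In Xist cells the 1 pair was Tgfb1 in mural cells (0.65) instead of Tgfbr2. With the stricter gate and thinning, Tgfbr2 in mural cells (-0.99 in both) fell below the UMI minimum. The 13 pairs of a listed gene and a class became 23 with Leiden clusters, 7 with thinning, 32 in Y cells, 2 with 50 CPM added and 25 without the low-count filter. In microglia, thinning gave Tgfbr1 0.059 and Tgfbr2 -0.091, and the mean of per-cell CPM gave Csf1r 0.016. In Xist cells Csf1 was -0.054 and Tgfbr2 -0.092. In Y cells Csf1 was -0.46, Csf2ra 0.16, Tgfbr1 0.058 and Tgfbr2 0.099. With 50 CPM added Csf1 was -0.19. Among reported genes at least 1.5 times apart, those whose sign changed were Dusp1 in the choroid plexus (0.32 thinned), Socs3 in astrocytes (0.083 in Xist cells) and Tgfb3 in mural Y cells (1.96). Of the 18 measured pairs of the 10 genes, 10 changed sign under some alternative, all of them short of 1.5 times in the reported value. The cause was not tested, except that subsets and thinned cells hold fewer UMIs. Choroid plexus was not run in Xist cells, since 3 and 1 cells remained and 20 were needed. Leaving out the barcodes found in both libraries, an alternative chosen after seeing the data, moved Csf1 in microglia by less than its counting interval. Median-of-ratios scaling moved class medians by at most 0.08 (log2).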
